A study of Mus musculus with 6 samples.

Results

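Transcripts of 10 genes of transforming growth factor beta (TGF-beta) and bone morphogenetic protein (BMP) signalling were followed through 6 libraries of C2C12 myotubes, cultured mouse muscle fibres formed by fusion of a myoblast line. The genes were taken by name from the 46983 rows of the count table: the ligands Tgfb1, Tgfb2 and Tgfb3, the receptors Tgfbr1, Tgfbr2 and Bmpr2, the inhibitor Smad6, and the nuclear factors Id1, Id2 and Id3. Each name matched a single row. The tested group was 3 libraries of wild-type myotubes given corticosterone, the principal glucocorticoid of mice, at 1e-07 M for 24 h. Its control was 3 libraries of the same cells given ethanol at 1 µL/mL for 24 h. All 6 come from 1 cell line and carry no other agent or allele, and the submitters call the replicates biologically independent, with no word on whether they came from separate passages or days.

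TGF-beta ligands are secreted in a latent form and, once freed, bind TGFBR2, which recruits and phosphorylates the kinase TGFBR1. TGFBR1 then activates SMAD2 and SMAD3. BMP ligands use BMPR2 with other type I receptors to activate SMAD1, SMAD5 and SMAD9, whose best known targets include the Id genes and Smad6. ID proteins lack a DNA-binding region and hold E proteins in inactive dimers, so that MYOD1 and its relatives lose their partners. TGF-beta and BMP both restrain the differentiation of cultured myoblasts, and Id levels are high in proliferating myoblasts.

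Total counts ran from 23877583 to 29928653 per library. Genes that glucocorticoids induce did not follow the labels in every library. Fkbp5, which encodes a co-chaperone of the glucocorticoid receptor, stood at 151, 36.9 and 135 CPM (counts scaled by library size with TMM factors, so that libraries compare) in corticosterone replicates 1, 2 and 3, and at 36.9, 177 and 35.3 CPM in vehicle replicates 1, 2 and 3. Tsc22d3 and Per1, also induced by glucocorticoids, divided the libraries in the same way: the library labelled corticosterone replicate 2 was low and that labelled vehicle replicate 2 was high. Values are therefore given by label, then without both libraries numbered 2, and then with corticosterone replicates 1 and 3 and vehicle replicate 2 beside the other 3 libraries. That last split was made from measured levels of Fkbp5 and similar genes and is not a treatment group, so it is read as values alone. Both libraries numbered 2 were left out for the same measured levels, which leaves corticosterone 1 and 3 beside vehicle 1 and 3. Adjusted p-values of that fit therefore describe these libraries and do not test the treatment. Over all genes tested, 3 pairs of libraries lay nearest each other: corticosterone 1 with vehicle 3 (0.36 log2 units, root mean square), vehicle 2 with vehicle 1 (0.36) and corticosterone 3 with corticosterone 2 (0.40), the next pair being at 0.45. Each pair held 1 library with higher and 1 with lower Fkbp5, and corticosterone 1 with vehicle 3 was the only pair that held both labels. Muscle markers were abundant in sum, the 8 of 10 listed that were in the table reaching 10458 to 12521 CPM under corticosterone and 8612 to 11808 CPM under vehicle. Among these 8, Acta1 had the highest mean, 4362 CPM, while Tnnc2 was nearly absent, at 0.03 to 0.17 CPM. The 8 markers of proliferating myoblasts summed to 230.1 to 241.8 CPM under corticosterone and 268 to 276 CPM under vehicle. Markers of other cells were low: 4 fibroblast markers summed to 22.9 to 34.0 CPM under corticosterone and 20.6 to 41.3 CPM under vehicle, and 3 endothelial markers to 0.10 to 0.38 CPM and 0 to 0.12 CPM. The 3 leukocyte markers summed to 1.13 to 2.02 CPM and 0.83 to 1.502 CPM, with Ptprc and Adgre1 at 0, and of 3 adipocyte markers Adipoq and Cidec were at 0.

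No member passed the test between the labels. Of the 10 genes, all of which passed the count filter, 0 were called higher and 0 lower by edgeR's quasi-likelihood test at an adjusted p of 0.05, where 0.00% of all 14450 genes tested were called. At an unadjusted p under 0.05 there were also 0 of 10 members, against 11.8% of all genes, and DESeq2 called 0 of 10, against 0.955% of all genes. With both libraries numbered 2 left out, edgeR called 0 of 10 members and 0.0208% of all genes. The log2 differences, corticosterone minus vehicle, were positive for 8 members and negative for 2, with a median of 0.10 beside 0.004 over all genes. CPM overlapped between the labels for 10 of 10 members, whereas 16.6% of all genes tested did not overlap (8.41% higher and 8.19% lower under corticosterone). For 9 of the 10 the larger of the 2 group SDs exceeded the difference of the means, Tgfbr2 being the exception. With 3 libraries a group, these values limit the differences only as far as their standard errors go. In bulk RNA, fewer cells of a type and less RNA per cell cannot be told apart, and the lower sum of proliferation markers under corticosterone goes with every comparison by label; its part in the members' values was not tested.

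**Figure D1:**
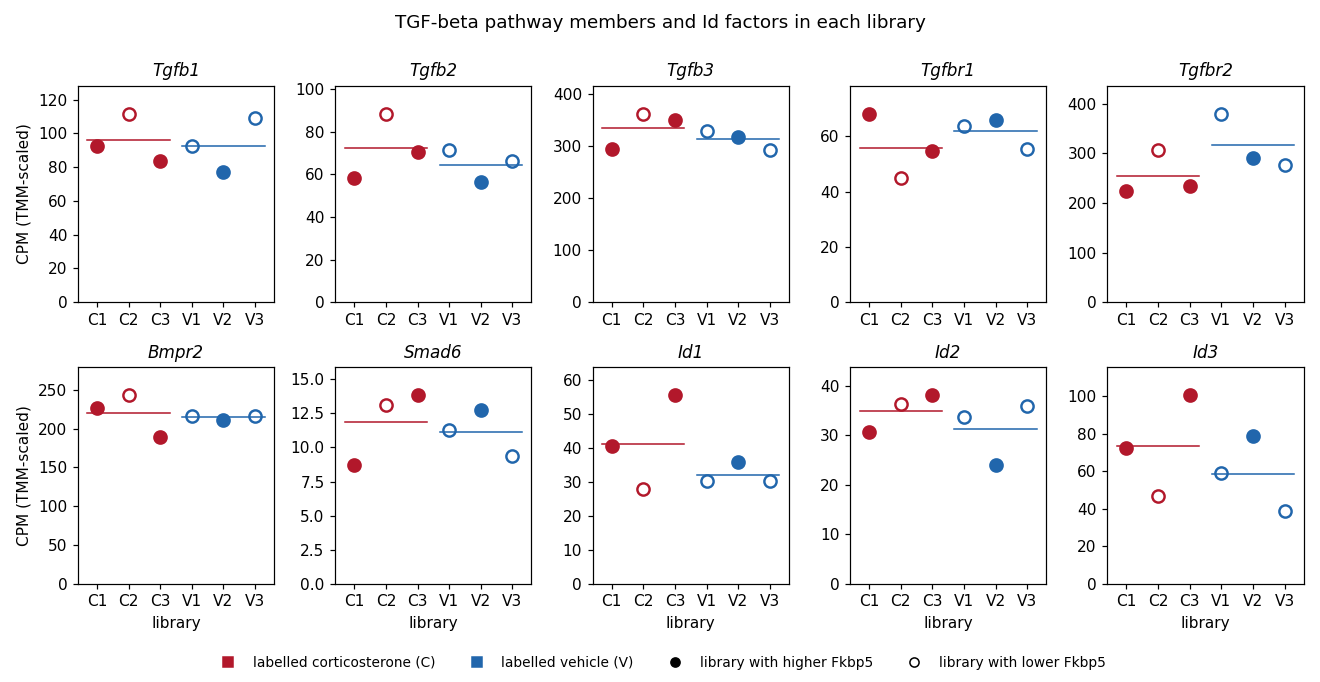
CPM (linear axis from 0) of the 10 members in the libraries labelled corticosterone (C1 to C3, red) and vehicle (V1 to V3, blue); lines mark group means, and filled points the libraries with higher Fkbp5. Red and blue points overlap in all 10 panels, while in the panels of Id1 and Id3 all filled points lie above all open ones.

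Levels can be compared between genes only per length, here CPM per kb of annotated exon, averaged over the 6 libraries. The exons of all annotated transcripts of a gene were merged for this length, which can exceed that of the transcript present. Ranks, ratios and shares between genes depend on it, while comparisons of the same gene between libraries do not. Tgfb3 was highest at 96.1 CPM per kb, with a range of 86.8 to 107 that no other member reached. Id3 (36.9), Tgfbr2 (34.8) and Id1 (31.7 CPM per kb) followed, and their ranges overlapped. Tgfb1 averaged 18.7 CPM per kb and did not reach the lowest Id1 value, being 15.3 to 22.1 against 24.0 to 47.9 CPM per kb, but it did overlap Id3, whose lowest value was 21.7. Below it lay Id2 at 13.6, Bmpr2 at 12.1, Tgfb2 at 11.8 and Tgfbr1 at 9.01 CPM per kb, each overlapping the next in this order. Smad6 was lowest, at 3.59 CPM per kb (2.72 to 4.31). The spread of single genes over the libraries differed: the highest library exceeded the lowest 1.28-fold for Bmpr2, but 2.00-fold for Id1 and 2.59-fold for Id3.

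**Figure D2:**
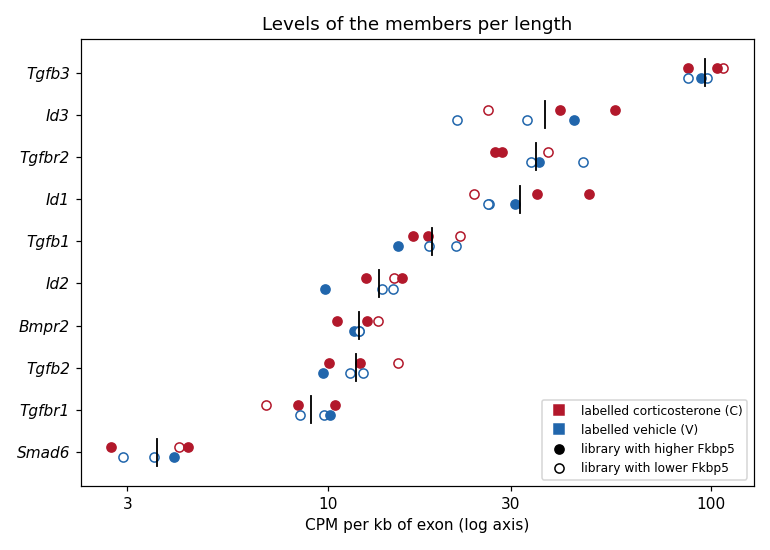
CPM per kb of exon (log axis) of each member in each library, with the mean over 6 libraries as a black bar; red points are labelled corticosterone, blue vehicle, and filled points have higher Fkbp5. Tgfb3 stands alone at 86.8 to 107 CPM per kb and Smad6 is lowest.

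Among the ligands, Tgfb1 (ENSMUSG00000002603, GRCm38 chromosome 7, 25687002 to 25705077), whose product blocks the differentiation of myoblasts in culture, stood at 92.2, 112 and 83.9 CPM under corticosterone and at 92.4, 77.0 and 109 CPM under vehicle. Its highest library was corticosterone replicate 2 and its lowest vehicle replicate 2. The difference by label was 0.05 ± 0.15 log2 units (SE, edgeR adjusted p = 0.908). It turned to -0.19 ± 0.13 (adjusted p = 0.838) without both libraries numbered 2.

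Tgfb2 (ENSMUSG00000039239, chromosome 1, 186622792 to 186705989), whose isoform needs a co-receptor to bind TGFBR2 well, gave 58.2, 88.3 and 70.3 CPM under corticosterone and 71.4, 56.1 and 66.1 CPM under vehicle. Again corticosterone replicate 2 was highest and vehicle replicate 2 lowest. Its difference of 0.16 ± 0.16 (adjusted p = 0.683) turned to -0.10 ± 0.13 without both libraries numbered 2 (adjusted p = 0.929). Tgfb3 (ENSMUSG00000021253, chromosome 12, 86056745 to 86079041) varied least, at 294, 363 and 350.4 CPM under corticosterone and 331, 318 and 294 CPM under vehicle, a difference of 0.10 ± 0.10 (adjusted p = 0.706). Exons of Tgfb2 share 124 bases with the antisense gene Gm29491, and those of Tgfb3 share 163 and 257 bases with Gm37804 and Gm48008 on the opposite strand. Without a stated strand setting, reads of these stretches cannot be assigned to either gene.

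Within the pool of the 3 ligand transcripts, each per length, Tgfb3 made up 72.4 to 79.0% in every library. The share of Tgfb1 was 15.9, 15.3 and 12.6% under corticosterone and 14.3, 12.8 and 18.03% under vehicle. These shares, which do not depend on how libraries are scaled, averaged 14.6 ± 1.76% and 15.0 ± 2.69% (SD, n = 3 each). They differed by less than the spread between replicates (exact two-sided permutation p = 0.9; 3 against 3 libraries allow no p under 0.1). The difference was -0.47 percentage points, and -1.94 without both libraries numbered 2. Tgfb1 thus remained the second most abundant and Tgfb2 the least abundant ligand transcript in all 6 libraries.

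Of the receptor genes, Tgfbr2 (ENSMUSG00000032440, chromosome 9, 116084293 to 116175360), which encodes the receptor that first binds the ligand, had the member difference farthest below 0. It stood at 223, 307 and 233 CPM under corticosterone and at 379, 290.3 and 277 CPM under vehicle. Corticosterone replicates 1 and 3 lay below every vehicle library, and corticosterone replicate 2 lay between them. The means were 254 ± 46.0 and 316 ± 55.7 CPM (SD, n = 3 each), a difference of -0.31 ± 0.16 (adjusted p = 0.485). Without both libraries numbered 2 it was -0.53 ± 0.17 (adjusted p = 0.724). The bases before its RefSeq start are shown because Tgfbr2 was lower in the library with higher Fkbp5 of every near pair. So were Tgfb1 and Tgfb2, whose bases are not shown, and 20.5% of all genes tested. A CAGAC was in the window of Tgfb2 but not in that of Tgfb1. Capitals mark a CAGAC, the short box to which SMAD3 and SMAD4 bind (RefSeq, GRCm38.p6, chr9:116175364-116175613, minus strand, positions -250 to -1 from the start).
Tgfbr2: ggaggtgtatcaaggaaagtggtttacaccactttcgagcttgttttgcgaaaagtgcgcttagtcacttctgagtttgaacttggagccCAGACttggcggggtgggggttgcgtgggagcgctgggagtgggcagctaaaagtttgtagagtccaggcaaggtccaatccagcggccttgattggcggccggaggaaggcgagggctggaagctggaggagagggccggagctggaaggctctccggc

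Tgfbr1 (ENSMUSG00000007613, chromosome 4, 47353222 to 47414931), the gene of the signalling kinase, stood at 68.2, 44.9 and 54.6 CPM under corticosterone and at 63.9, 66.1 and 55.4 CPM under vehicle. Its lowest library was corticosterone replicate 2. The difference of -0.15 ± 0.15 (adjusted p = 0.705) turned to 0.04 ± 0.15 without both libraries numbered 2 (adjusted p = 0.978). Bmpr2 (ENSMUSG00000067336, chromosome 1, 59763400 to 59879014), the type II receptor gene of BMP ligands, was 227, 243 and 189 CPM under corticosterone and 217, 211 and 216 CPM under vehicle. The vehicle libraries lay within the range of the corticosterone libraries, and the difference was 0.03 ± 0.10 (adjusted p = 0.904). Per length, transcripts of Tgfbr2 exceeded those of Tgfbr1 2.61-, 5.46- and 3.41-fold under corticosterone and 4.74-, 3.50- and 3.99-fold under vehicle. Of the pooled Tgfbr1, Tgfbr2 and Bmpr2 transcripts, Bmpr2 held 25.09, 23.32 and 22.24% under corticosterone and 17.66, 20.47 and 22.15% under vehicle. This share did not overlap by label, by a margin of 22.15 to 22.24%. It was not tested, and no background share was computed.

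Smad6 (ENSMUSG00000036867, chromosome 9, 63953076 to 64022059) encodes an inhibitory SMAD that BMP signalling induces and that in turn blocks BMP receptors. It stood at 8.72, 13.1 and 13.8 CPM under corticosterone and at 11.2, 12.7 and 9.35 CPM under vehicle. Counts were 250, 384 and 352 against 288, 370 and 224. Corticosterone 1 and vehicle 3, which form a near pair, were the lowest libraries. The difference of 0.10 ± 0.20 (adjusted p = 0.863) was under 1 standard error. Its start site is shown because it carries the full palindrome GTCTAGAC, the sequence first selected by SMAD3 and SMAD4, which is in 0.213% of the 32851 RefSeq promoter windows of 300 bases; capitals mark it (GRCm38.p6, chr9:64022056-64022159, minus strand, positions -100 to 4, counted without a 0).
Smad6: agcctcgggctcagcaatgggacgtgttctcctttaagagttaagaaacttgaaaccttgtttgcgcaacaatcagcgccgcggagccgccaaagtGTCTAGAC

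Id1 and Id3 showed the widest spread over the libraries among the members, whereas Id2, with a highest library 1.58-fold above its lowest, stood below Tgfbr2 at 1.70-fold. Id1 (ENSMUSG00000042745, chromosome 2, 152736251 to 152737410), a direct target of BMP signalling, stood at 40.7, 27.8 and 55.6 CPM under corticosterone and at 30.5, 35.8 and 30.3 CPM under vehicle. Corticosterone replicates 1 and 3 were above every vehicle library and corticosterone replicate 2 was below them all. The means were 41.4 ± 13.9 and 32.2 ± 3.11 CPM (SD, n = 3 each), a difference of 0.36 ± 0.23 (adjusted p = 0.549). Without both libraries numbered 2 it was 0.66 ± 0.17 (adjusted p = 0.699).

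Id3 (ENSMUSG00000007872, chromosome 4, 136143497 to 136145755), a close relative that also sequesters E proteins, gave 72.3, 46.9 and 100.5 CPM under corticosterone and 59.1, 78.5 and 38.8 CPM under vehicle. Corticosterone replicate 3 was highest and vehicle replicate 3 lowest. Its difference was 0.31 ± 0.32 (adjusted p = 0.695), and 0.82 ± 0.25 without both libraries numbered 2 (adjusted p = 0.724). Id2 (ENSMUSG00000020644, chromosome 12, 25093799 to 25097140), whose protein also binds retinoblastoma family proteins, followed another order. It stood at 30.6, 36.3 and 38.0 CPM under corticosterone and at 33.7, 24.0 and 36.0 CPM under vehicle, lowest in vehicle replicate 2. The difference of 0.17 ± 0.16 (adjusted p = 0.683) was -0.02 ± 0.14 without both libraries numbered 2 (adjusted p = 0.990).

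Stretches before the RefSeq start of Id3 are shown because its levels did not overlap between the libraries with higher and lower Fkbp5, and one of Id2 because its levels did overlap. Capitals mark a CAGAC or its complement GTCTG in Id3, and in Id2 a GGCGCC, the GC-rich site at which SMAD1 and SMAD5 bind. The Id3 stretches (GRCm38.p6, plus strand) are chr4:136143644-136143669, positions -178 to -153, and chr4:136143743-136143768, positions -79 to -54, both inside a longer first exon of GENCODE. That of Id2 is chr12:25096254-25096342 on the minus strand, positions -250 to -162. It lies inside the gene as GENCODE annotates it, which begins at 25097140 on that strand. Of its bases, 0 are in an annotated untranslated region.
Id3, upstream box: gtcctcggcgtCAGACcagcctaagg
Id3, downstream box: gacccttggcgGTCTGttttgaataa
Id2: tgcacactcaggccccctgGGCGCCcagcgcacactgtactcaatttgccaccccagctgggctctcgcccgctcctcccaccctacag

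Promoter windows were in the reference table for 8 of the 10 members, those of Id1 and Tgfb3 being the 2 not matched. CAGAC was read on both strands and occurred in 49.6% of all windows, so its presence upstream of Id3, Tgfbr2, Tgfb2 and a second Tgfbr1 start is common. GGCGCC occurred in 11.9% of all windows and in those of Id2, Bmpr2 and Tgfbr1. The glucocorticoid response element (AGAACA and TGTTCT with 3 bases of any kind between them), read on both strands, was in 0.00913% of all windows and in 0 of the members' windows. Its half-site AGAACA, on either strand, was in 19% of all windows, and among the members in those of Bmpr2 and Smad6; in the Smad6 stretch above it is the tgttct left in lower case. These motifs do not overlap each other in the members. A match describes letters, not binding.

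The make-up of the Id pool differed between libraries more than by label. Per length, Id2 held 14.3, 22.9 and 13.0% of the Id1 to Id3 transcripts under corticosterone and 18.9, 11.6 and 23.6% under vehicle. Id1 held 39.8, 36.9 and 40.1% under corticosterone and 36.0, 36.5 and 41.8% under vehicle, means of 38.9 ± 1.78% and 38.1 ± 3.23% (SD, n = 3 each; exact two-sided permutation p = 0.8, smallest possible 0.1). Id3 held the rest, from 34.6% in vehicle replicate 3 to 51.9% in vehicle replicate 2. These shares depend on the exon lengths used. By CPM without division by length, Id2 held 21.3, 32.7 and 19.6% under corticosterone and 27.3, 17.4 and 34.2% under vehicle.

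**Figure D3:**
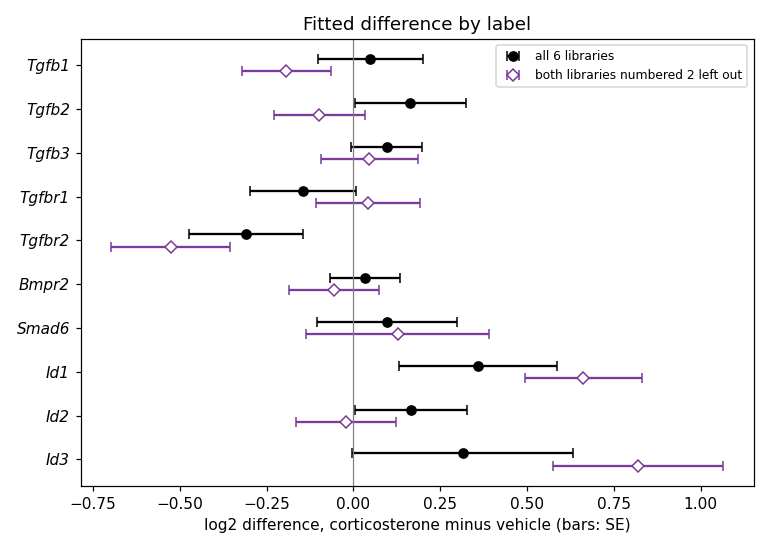
Log2 difference (corticosterone minus vehicle) of each member with its standard error, from edgeR fits to all 6 libraries (black) and without both libraries numbered 2 (purple, open). None passed an adjusted p of 0.05 in either fit, and 5 members lie on the other side of 0 in the second.

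Read by Fkbp5 instead of by label, Id1 and Id3 did not overlap and Id2 did. In the libraries with higher Fkbp5, corticosterone 1, corticosterone 3 and vehicle 2, Id1 stood at 40.7, 55.6 and 35.8 CPM, against 27.8, 30.5 and 30.3 CPM in corticosterone 2, vehicle 1 and vehicle 3. Id3 stood at 72.3, 100.5 and 78.5 CPM, against 46.9, 59.1 and 38.8 CPM. Id2 stood at 30.6, 38.0 and 24.0 CPM, against 36.3, 33.7 and 36.0 CPM, with both the highest and the lowest value in libraries with higher Fkbp5. Tgfb1 was lower without overlap by a margin of 92.2 to 92.4 CPM, which is within counting error. Thus 2 of 10 members were higher and 1 lower without overlap, where 4.89% and 4.74% of all genes tested were (9.63% in either direction), and the other 7 overlapped.

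Ratios within a library, which scaling cannot change, were read on the same split. Per length, Id1 exceeded Id2 2.80-, 3.07- and 3.13-fold in the libraries with higher Fkbp5, against 1.61-, 1.90- and 1.77-fold in the others. The ratio of Id3 to Id2 was 3.22, 3.59 and 4.45, against 1.76, 2.39 and 1.47. Tgfbr2 exceeded Tgfbr1 2.61-, 3.41- and 3.50-fold, against 5.46-, 4.74- and 3.99-fold. The ratio of Tgfb3 to Tgfb2 was 8.65, 8.54 and 9.70, against 7.03, 7.93 and 7.60. Those of Id3 to Id1 (0.829 to 1.42 over the 6 libraries), Tgfb3 to Tgfb1 (4.02 to 6.22) and Tgfb1 to Tgfb2 (1.37 to 1.89) overlapped. Thus 4 of 7 ratios did not overlap on this split, and all 7 overlapped by label. No share over all gene pairs was computed, and the ratios are not independent of the levels above: both that have Id2 below the line rest on Id1 and Id3.

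Within the near pairs, Id3 was higher in the library with higher Fkbp5 by 0.90 (corticosterone 1 minus vehicle 3), 1.10 (corticosterone 3 minus corticosterone 2) and 0.41 log2 units (vehicle 2 minus vehicle 1). The differences of Id1 in the same order were 0.42, 1.00 and 0.23. Tgfbr1 was 0.30, 0.28 and 0.05 log2 units higher. Tgfbr2 was lower in each pair, by values close to each other: -0.31, -0.40 and -0.39 log2 units. Tgfb1 differed by -0.24, -0.41 and -0.26, and Tgfb2 by -0.18, -0.33 and -0.35. In all, 3 members were higher and 3 lower in every pair, where 20.0% and 20.5% of all genes tested were (40.5% in either direction), and 4 were mixed: Tgfb3, Bmpr2, Smad6 and Id2. For comparison, Fkbp5, on which the split rests, differed by 2.09, 1.87 and 2.26.

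**Figure D4:**
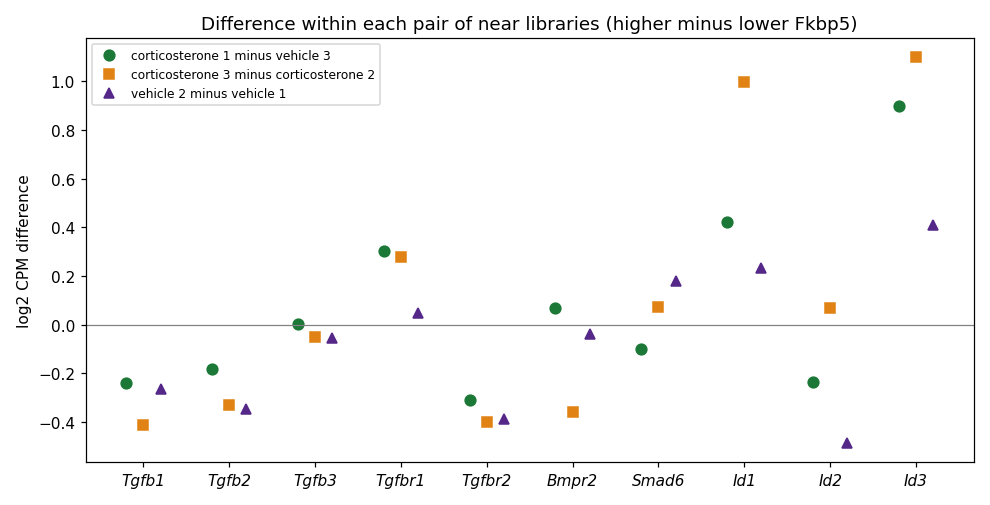
Log2 CPM difference (library with higher minus library with lower Fkbp5) for each member within the 3 pairs of nearest libraries: corticosterone 1 minus vehicle 3 (circles), corticosterone 3 minus corticosterone 2 (squares), vehicle 2 minus vehicle 1 (triangles). Id1, Id3 and Tgfbr1 lie above 0 in every pair, and Tgfb1, Tgfb2 and Tgfbr2 below.

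The rest of the pathway was read by label from lists, none of which held a gene that edgeR called with all 6 libraries. For ligand latency and activation, 0 of 13 genes tested passed, with a median log2 difference of 0.04. The most abundant were Bgn, the gene of the TGF-beta-binding proteoglycan biglycan, at 3574 ± 928 CPM under corticosterone and 3049 ± 378 CPM under vehicle, and Lox, whose enzyme crosslinks collagen, at 1075 ± 353 and 882 ± 334 CPM (SD, n = 3 each). Of 14 other BMP and GDF ligands, 5 were tested and 0 passed (median 0.27). Bmp4, the most abundant, stood at 70.5 ± 28.7 CPM under corticosterone and 58.3 ± 17.1 CPM under vehicle, and Gdf6 at 11.4 ± 4.16 and 9.53 ± 9.06 CPM.

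DESeq2 called 1 ligand gene of that list, Bmp6, named after its values were seen. Over all genes DESeq2 called 0.955%. Bmp6, an activator of BMP receptors, stood at 12.2, 5.82 and 13.4 CPM under corticosterone and at 2.23, 5.13 and 3.30 CPM under vehicle. The labels did not overlap, although corticosterone replicate 2 and vehicle replicate 2 were close. Its log2 difference was 1.55 ± 0.39 (edgeR adjusted p = 0.364, DESeq2 adjusted p = 0.0137), and 2.22 without both libraries numbered 2 (edgeR adjusted p = 0.141). Gdf5, a ligand of joint and tendon development also named after its values were seen, stood at 4.19, 1.61 and 1.45 CPM under corticosterone and at 6.52, 5.75 and 5.72 CPM under vehicle, a difference of -1.31 ± 0.39 (edgeR adjusted p = 0.364). Without corticosterone replicate 1, its highest corticosterone library, edgeR called it (log2 difference -1.97, adjusted p = 0.0428). That fit called 29 genes in all, the most with any library left out. Leaving out any other library gave 0 calls in this list.

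Receptor and co-receptor genes other than the members gave 0 of 11 passing, 3 positive and 8 negative, with a median of -0.13. Bmpr1a, the type I partner of BMPR2, was even, at 191 ± 6.33 CPM under corticosterone and 192 ± 11.3 CPM under vehicle, and Acvr1 stood at 70.5 ± 5.54 and 64.6 ± 3.13 CPM. Of the SMAD transducers 0 of 6 passed (median 0.08). Smad3, a transducer of TGF-beta, stood at 120 ± 9.96 CPM under corticosterone and 130 ± 10.0 CPM under vehicle, and Smad5, a transducer of BMP, at 123 ± 15.3 and 118 ± 0.27 CPM. Intracellular inhibitors had 0 of 10 passing (median -0.11). The most abundant were Pmepa1, which traps receptor-activated SMADs, at 653 ± 80.4 and 719 ± 32.3 CPM, and Fkbp1a, whose protein guards the type I receptor, at 301 ± 14.6 and 275 ± 9.68 CPM. Extracellular BMP antagonists had 0 of 10 passing, 2 positive and 8 negative (median -0.23). Among them Fstl1 stood at 997 ± 216 CPM under corticosterone and 916 ± 204 CPM under vehicle, and Grem1, which encodes gremlin, at 435 ± 181 and 505 ± 89.4 CPM.

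TGF-beta target genes had 0 of 18 passing by edgeR, with 14 positive and 4 negative log2 differences, a median of 0.18, and 4 at an unadjusted p under 0.05, a level that 11.8% of all genes reached. Their most abundant members were Fn1, the fibronectin gene, at 7639 ± 3300 CPM under corticosterone and 7004 ± 1048 CPM under vehicle, and Thbs1, whose product can activate latent TGF-beta, at 5393 ± 2512 and 4626 ± 1004 CPM. Read by Fkbp5, 3 of the 18 were higher without overlap and 4 lower, where 4.89% and 4.74% of all genes were. Those named next were picked out after their values were seen. Ctgf, the connective tissue growth factor gene, stood at 481, 591 and 576 CPM in corticosterone 1, corticosterone 3 and vehicle 2, against 177, 167 and 131 CPM in corticosterone 2, vehicle 1 and vehicle 3. Postn, the periostin gene, stood at 507, 829 and 898 CPM, against 402, 423 and 300.3 CPM. Lower without overlap were Fn1, Ltbp2, Pmepa1 and Timp1, so that some targets were higher and others lower in the same libraries. By label, Ctgf differed by 0.51 ± 0.62 (edgeR adjusted p = 0.748). Without both libraries numbered 2 it differed by 1.85. That is no separate result, since Ctgf was picked for parting by Fkbp5 and those libraries were left out for their Fkbp5.

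**Figure D5:**
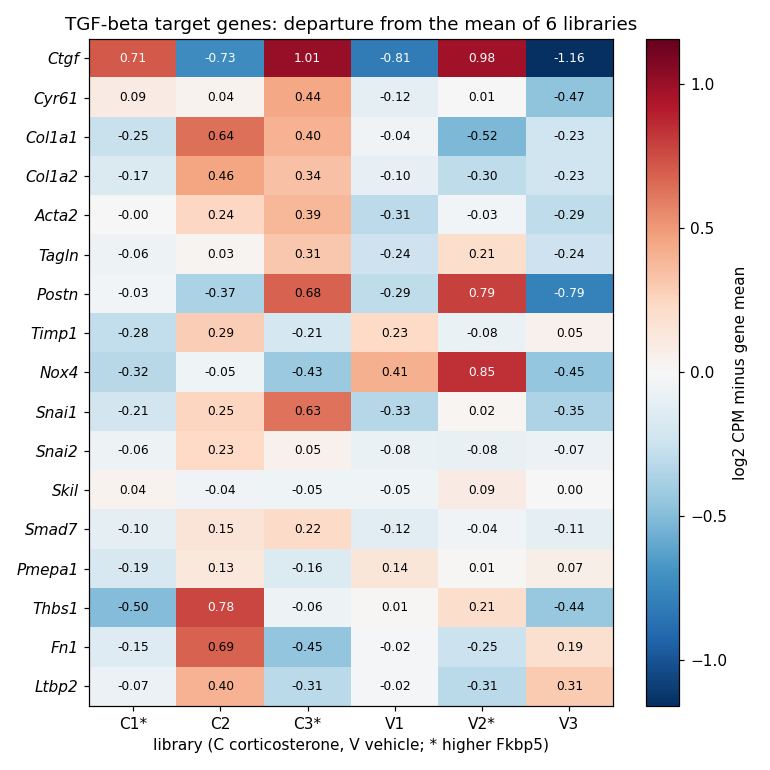
Log2 CPM of TGF-beta target genes in each library, as the departure from the gene's mean over 6 libraries (colour and printed value); C are libraries labelled corticosterone, V vehicle, and stars mark higher Fkbp5. Ctgf and Postn are above their values of unstarred libraries in all starred ones, and Fn1, Ltbp2, Pmepa1 and Timp1 below.

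BMP targets other than the members had 0 of 7 passing (median -0.05), with Bmper at 87.9 ± 19.5 CPM under corticosterone and 105 ± 48.3 CPM under vehicle and Runx2, a regulator of bone formation, at 52.3 ± 5.25 and 46.8 ± 1.18 CPM. Read by Fkbp5, 0 of these 7 BMP targets were higher and 0 lower without overlap, unlike Id1 and Id3. Among the helix-loop-helix partners of ID proteins 0 of 7 passed (median 0.03). Myog, the myogenin gene, stood at 790 ± 44.0 and 722 ± 124 CPM, and Tcf12, which encodes an E protein, at 204 ± 14.2 and 200 ± 10.6 CPM. Of these 7 genes, 3 were lower and 1 higher without overlap in the libraries with higher Fkbp5, where 4.74% and 4.89% of all genes were; they are named after their values were seen. Lower were the E protein genes Tcf4, Tcf3 and Tcf12, Tcf4 standing at 179, 160 and 203.1 CPM against 204, 246 and 210 CPM. They parted only by 203.1 to 204.0 CPM (Tcf4), 80.9 to 81.6 CPM (Tcf3) and 201.9 to 202.7 CPM (Tcf12). Higher was Myf5, which encodes a myogenic factor, at 29.8, 27.2 and 22.2 CPM against 11.9, 18.2 and 21.9 CPM. All these margins, that of Myf5 included, are within counting error. The markers of myotubes had 0 of 7 passing (median 0.19), Acta1 standing at 4648 ± 177 CPM under corticosterone and 4076 ± 473 CPM under vehicle and Myh1 at 1767 ± 840 and 2088 ± 312 CPM. Those of proliferating myoblasts had 0 of 8 passing by edgeR and 1, Top2a, by DESeq2 (median -0.30), which called 0.955% of all genes. At an unadjusted p under 0.05 were 4 of 8, against 11.8% of all genes. In the other lists the count at that unadjusted level was 2 of 5 for BMP and GDF ligands. It was 1 each for latency genes (of 13), BMP antagonists (of 10) and SMAD transducers (of 6). For BMP targets, helix-loop-helix partners and myotube markers it was 1 of 7 each. It was 0 for receptors and intracellular inhibitors. Some genes sit in more than 1 list, and the gene counted for BMP antagonists and for BMP targets is Nog in both. Top2a stood at 57.5 ± 0.79 and 71.4 ± 3.01 CPM and Pax7 at 58.1 ± 7.67 and 54.6 ± 7.78 CPM.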

How the data were processed

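Poly(A) RNA libraries were prepared with a NEBNext Ultra kit, per the labels' protocols. The deposited data are raw counts of reads on each gene, 1 column a library, in a single table of the authors. HISAT2 2.0.5, HTSeq 0.6.1, DESeq2 1.24.0 and mm10 are named in the submitters' processing notes. The annotation release, the strand setting and any filter: not given in the sources used here. Of the gene identifiers 98.95% matched GENCODE M21 (GRCm38), which gave positions and exon lengths, and promoter letters came from RefSeq (GRCm38.p6). No row lacked a gene name.

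Groups followed the labels. edgeR 4.0.16 (R 4.3.3) fitted all 14450 genes kept by filterByExpr with TMM scaling and no block. Two-sided quasi-likelihood p-values were adjusted over these genes (Benjamini-Hochberg). Standard errors are the log2 difference over the root of F. Log2 CPM used a prior count of 2. A count of 3 equalled 0.100 to 0.126 CPM, which covers counting error alone. Near libraries had the smallest root mean square difference of log2 CPM. The script was tested on simulated data. Alternatives were DESeq2 1.42.0, other scalings, other count filters, the replicate block and libraries left out.

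The members, lists and tests were chosen with earlier results of these data known. The naming rule took all 10 members, Fkbp5, Tsc22d3 and Per1, the called genes of each list or else the 2 with the highest mean CPM, and the 3 genes most like Id1, Smad6 and Tgfb2. Exceptions are said to be chosen after their values were seen. Of the TGF-beta target genes, 1 is counted in its list but not reported here by name or in the plot.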

Additional observations from a re-analysis of the deposited data

How the results depend on the processing

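No member passed the threshold under any alternative, and adjusted p over the members and alternatives ran from 0.248 to 0.998. Of 140 log2 differences of members under alternatives, 128 kept their direction and 12 turned. With both libraries numbered 2 left out the turned values were -0.19 (Tgfb1), -0.10 (Tgfb2), 0.041 (Tgfbr1), -0.056 (Bmpr2) and -0.022 (Id2). Bmpr2 was also -0.014 with library totals as the scaling. Leaving out each library in turn gave differences of -0.074 to 0.17 (Tgfb1), -0.0063 to 0.30 (Tgfb2), 0.04 to 0.18 (Tgfb3), -0.31 to -0.01 (Tgfbr1), -0.47 to -0.16 (Tgfbr2), -0.044 to 0.13 (Bmpr2), -0.025 to 0.28 (Smad6), 0.09 to 0.58 (Id1), 0.005 to 0.27 (Id2) and 0.02 to 0.58 (Id3). The lowest Id1 and Id3 values were without corticosterone replicate 3. Over all genes, calls numbered 0 with all 6 libraries, 138 by DESeq2, 3 with both libraries numbered 2 left out, and from 0 to 29 with 1 left out (29 without corticosterone replicate 1 and 11 without vehicle replicate 3). Of the lists, other BMP and GDF ligands had 1 call by DESeq2 and 0 to 1 with 1 library left out, and proliferating myoblast markers had 1 by DESeq2. The Tgfb1 share differed by -1.58 to 1.03 percentage points and the Id1 share by -0.21 to 2.71 with 1 library left out. Without both libraries numbered 2 the differences were -1.94 points for Tgfb1 (-0.47 with all 6 libraries) and 1.08 points for Id1 (0.85). The cause of these turns was not tested. Same-numbered libraries did not deviate together over the 14450 genes (correlations -0.32 to -0.15, and 0 libraries correlated best with their own number), and the replicate block gave 0 calls.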

Other observations

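Genes whose profile over the 6 libraries was most like that of a member were sought among 10639 genes of at least 5 CPM, by the root mean square difference of centred log2 CPM. Smad6 was followed closest by Ccdc102a (0.04 log2 units), Fkbp7 (0.07) and Gprin3 (0.07), whereas Smad6 itself spread by 0.25 log2 units. Ccdc102a stood at 46.5, 65.3 and 72.9 CPM under corticosterone and at 56.8, 63.5 and 46.5 CPM under vehicle. Nearest to Tgfb2, which spread by 0.21 log2 units, were Rfx5 (0.05), Pxdn, a gene of matrix crosslinking (0.06), and Wdr6 (0.07). Pxdn stood at 211, 309 and 244 CPM under corticosterone and at 243, 216 and 224 CPM under vehicle, highest in corticosterone replicate 2 as Tgfb2 was. Id1 spread by 0.34 log2 units and had no neighbour as close: Timm23, a subunit gene of mitochondrial protein import, differed by 0.11, Relt by 0.13 and Rpl21 by 0.13. Rpl21 has near-identical copies in the genome, so its counts are uncertain. Timm23 stood at 74.6, 45.1 and 84.6 CPM under corticosterone and at 50.04, 52.6 and 52.0 CPM under vehicle.

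Some latency, ligand and BMP antagonist genes outside the members also parted by Fkbp5, chosen here after their values were seen. Of 13 latency genes tested, 2 were higher and 3 lower without overlap. Of 5 other BMP and GDF ligands, 2 were higher and 0 lower, and of 10 BMP antagonists 0 were higher and 2 lower. In other lists few or none parted: 0 higher and 1 lower of 11 receptors and co-receptors, and 0 and 1 of 6 SMAD transducers. Intracellular inhibitors had 1 higher and 1 lower of 10, and BMP targets 0 and 0 of 7. Ltbp1, which encodes a protein that stores latent TGF-beta in the matrix, stood at 223, 254 and 231 CPM in corticosterone 1, corticosterone 3 and vehicle 2, against 178, 132 and 137 CPM in corticosterone 2, vehicle 1 and vehicle 3. Lrrc32, whose product GARP presents latent TGF-beta on cells, stood at 1.99, 3.10 and 3.76 CPM, against 6.44, 9.02 and 5.09 CPM. Grem1, whose product binds BMPs, stood at 351, 312 and 419 CPM, against 642, 598 and 499 CPM. Gdf6 stood at 10.3, 16.0 and 19.98 CPM, against 7.87, 4.69 and 3.92 CPM. Background shares for such a pattern are 4.89% of all genes higher and 4.74% lower, and no test was made on this split.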
